A study of Schmidtea mediterranea with 24 samples.

Results

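The response of sorted mmp-1+ cells to amputation was set against that of mmp-1- cells, to find the genes whose change between intact planarians and 48 h tail fragments differed between the populations. The comparison used 12 of the 24 samples of the series, those labelled as sorted cells of intact worms or of tail fragments 48 h after amputation. The animals were the planarian flatworm Schmidtea mediterranea. The 4 groups were mmp-1+ cells of 48 h tail fragments, mmp-1+ cells of intact worms, mmp-1- cells of 48 h tail fragments and mmp-1- cells of intact worms, with 3 libraries each. All cells were labelled wildtype, all worms had been starved for 11 days, and a biological replicate was a pool of 100 worms. Worms were dissociated and fixed in ACME buffer, stained with an mmp-1 probe by hybridization chain reaction, which makes a chosen RNA fluorescent inside cells, and separated by flow cytometry into lots of 1000 cells. Intact samples were whole worms and 48 h samples were tails, so the body region and the injury cannot be told apart in any change from intact. The difference between the changes of the 2 populations, called the interaction here, takes both populations from the same kinds of tissue. A difference between body regions that is unlike in the 2 populations would still enter it. Region and injury therefore cannot be told apart in the interaction either.

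Planarians rebuild missing body parts from pluripotent stem cells called neoblasts, which lie among differentiated cells in the mesenchyme. The gene mmp-1 encodes a matrix metalloproteinase, an enzyme class that cleaves proteins of the extracellular matrix. After amputation, planarian tissue is known for an early wound response followed by stem cell proliferation, the growth of new tissue and the remodelling of old tissue. In RNA from pooled cells, fewer cells of a type and less RNA per cell cannot be told apart.

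The 12 libraries held 54364466 to 66114382 counts assigned to genes, and 31435 of 36035 identifiers had enough counts to be tested. The files do not pair their SMED30 identifiers with gene names, so genes are given by identifier, the level of mmp-1 itself was not analysed here, and no function is given for any gene. The sort was therefore described with 125 genes called higher by at least 4-fold in mmp-1+ cells at each of the 3 times of the series (intact, 6 h and 48 h), of which 1 (SMED30012987) is also among the genes of the interaction. Their summed level was 129060 ± 28196 CPM (counts scaled to a common library size) in 48 h mmp-1+ libraries and 3260 ± 1551 CPM in 48 h mmp-1- libraries, against 136494 ± 55808 CPM in intact mmp-1+ and 4058 ± 3354 CPM in intact mmp-1- libraries (SD, n = 3 each). The genes were chosen by their difference in these same libraries. The gap between the populations thus follows from the choice and is no check of the sort. Replicate 2 of both intact groups stood apart: it held 73080 CPM in mmp-1+ cells, where the other libraries had 158276 and 178127 CPM, and 7929 CPM in mmp-1- cells, where the others had 2058 and 2185 CPM. The part of these libraries in the results is given by the values without them.

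At 48 h, edgeR called 55 of 31435 genes (0.175%) with a more positive change from intact in mmp-1+ than in mmp-1- cells, and 0 genes with a less positive change (quasi-likelihood test, Benjamini-Hochberg adjusted p under 0.05 over all genes tested). At an unadjusted p under 0.05, 724 genes were more and 598 less positive in mmp-1+ cells, and the median interaction over all genes was -0.02 on the log2 scale. DESeq2 called 98 more and 6 less positive genes and limma with voom 32 and 0. The absence of less positive calls depended on single libraries. Without intact mmp-1+ replicate 2 edgeR called 46 more and 11 less positive genes, and it called 46 and 6 when intact mmp-1- replicate 2 was left out. With both left out, an alternative added after the data had been seen, it called 44 and 18, and 40 of the 44 were among the 55.

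In mmp-1+ cells 7.13% of all genes were called higher and 10.6% lower at 48 h than in intact worms, and the shares for mmp-1- cells were 7.74% higher and 9.85% lower. Of the 7339 genes called in either population, 3754 were called in both, 3746 of them in the same direction and 8 in opposite directions. A further 1811 genes were called in mmp-1+ cells alone and 1774 in mmp-1- cells alone, but the interaction was called for 20 and 3 of these. A call in a single population was thus seldom accompanied by a called difference between the populations. The median SE of the interaction over all genes was 0.26, against 0.19 and 0.18 for the change within mmp-1+ and mmp-1- cells. Among the 10124 genes with an average log2 CPM of 0 or less the median SE was 0.59 and 1 gene was called (0.00988%). Among the 5390 genes between 4 and 6 the median SE was 0.14 and 26 genes were called (0.482%). Small differences in rare transcripts were thus not detectable with these libraries, and the source of the larger SE was not tested.

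The 55 genes reached their difference by 5 routes, defined by the calls within each population. A rise was called in mmp-1+ cells with no call in mmp-1- cells for 20 genes. A fall was called in both populations, smaller in mmp-1+ cells, for 15. A rise was called in both, larger in mmp-1+ cells, for 12, and a rise in mmp-1+ with a fall in mmp-1- cells for 5. A fall was called in mmp-1- cells with no call in mmp-1+ cells for 3. The order of these counts was not stable: without 48 h mmp-1+ replicate 2 there were 9 rises in mmp-1+ cells alone and 13 shared falls, and without replicate 2 of both intact groups 14 and 16. The median interaction of the 55 genes was 1.45 on the log2 scale, and 38 of them differed by at least 2-fold. The smallest difference called was 0.53. Of the 55, 35 stayed called whichever of the 12 libraries was left out. Without replicate 2 of both intact groups the calls that stayed were 10 of the 20 rises in mmp-1+ cells alone, 14 of the 15 shared falls, 9 of the 12 shared rises, 4 of the 5 opposite changes and all 3 falls in mmp-1- cells alone.

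**Figure D1:**
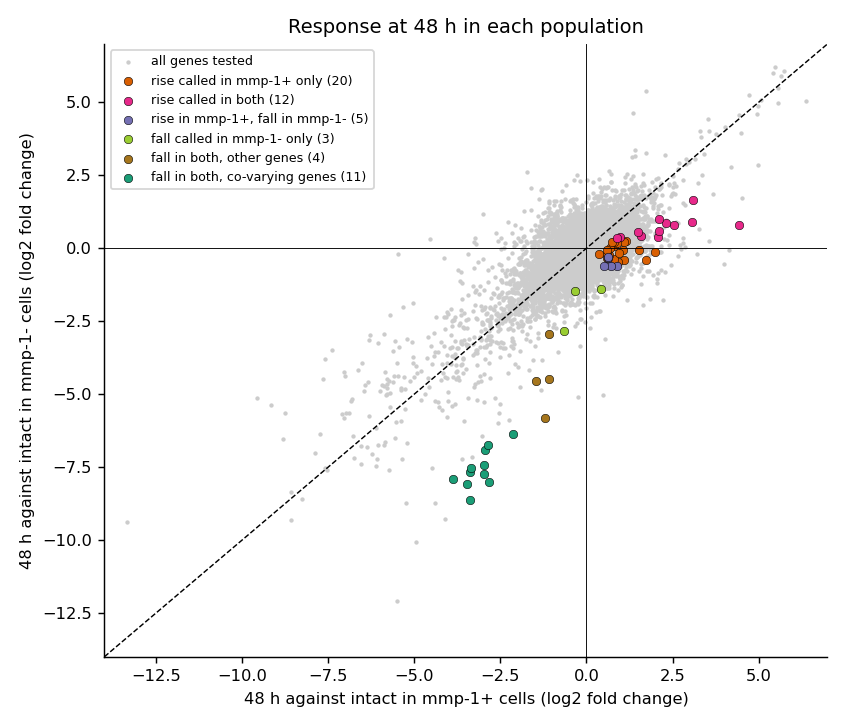
Change between intact worms and 48 h tail fragments in mmp-1+ cells (x axis) and mmp-1- cells (y axis), both as log2 fold change from edgeR, with 1 point per gene. Grey points are the 31435 genes tested, coloured points are the 55 genes called in the interaction by route, and the dashed line marks equal change in both populations. All 55 lie below the line, and the 11 co-varying genes form a cluster apart at log2 changes of -3.88 to -2.13 for mmp-1+ and -8.64 to -6.36 for mmp-1- cells.

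The largest differences between the populations lay in genes that fell in both. For these 15 genes the median change at 48 h was -2.96 for mmp-1+ and -7.41 for mmp-1- cells on the log2 scale, and the median interaction was 4.23. In all 15 the 3 libraries at 48 h lay below the 3 intact libraries in each population. Over all genes tested the share was 19.2% for mmp-1+ and 15.1% for mmp-1- cells, but the route was defined by falls called in these libraries, so the count of 15 describes that choice. Of the 15, 11 varied together from library to library and are described first. This grouping was made after the values had been seen, so it has no test. Deviations from the group mean on the log2 scale, over the 18 sorted libraries of the series, correlated with Pearson r between 0.76 and 0.99 for the 55 pairs among these 11 genes, and between -0.44 and 0.23 for the 44 pairs with the other 4 genes of this route. Every pair of genes shares the same libraries, and depth and sort vary with them, so these values only describe the grouping.

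The summed level of the 11 co-varying genes was 305, 246 and 58.2 CPM in 48 h mmp-1+ libraries, against 1926, 1649 and 1439 CPM in intact mmp-1+ libraries. The mmp-1- libraries had 25.8, 20.4 and 18.7 CPM at 48 h, against 3946, 2065 and 3409 CPM in intact worms. At 48 h the 3 mmp-1+ libraries lay above the 3 mmp-1- libraries, while in intact worms the order was the reverse, and the groups did not overlap at either time. As a share of the mmp-1+ mean, the level in mmp-1- cells was 10.7% at 48 h and 188% in intact worms. The sort difference of these genes therefore changed sign: its median was -0.91 on the log2 scale among intact libraries, 0.17 at 6 h and 3.43 after 48 h. In intact worms none of the 11 was called between the populations by edgeR, where 0.875% of all genes were called lower in mmp-1+ cells, though in 6 of the 11 all mmp-1- libraries lay above all mmp-1+ libraries (9.99% of all genes did so). At 48 h all 11 were called higher in mmp-1+ cells, where 4.39% of all genes were. The intact and 48 h differences are both parts of the interaction that chose these genes, so nothing is read from these counts.

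SMED30000113 had the largest interaction in this route. It had 7.95, 6.27 and 0.721 CPM in 48 h mmp-1+ libraries, against 56.3, 47.1 and 51.7 CPM in intact mmp-1+ libraries. At 48 h the mmp-1- libraries held 0.237, 0.300 and 0.394 CPM, against 158, 52.3 and 166 CPM in intact worms. At 48 h every library was below every intact library of its population, and the lowest mmp-1+ library at 48 h was 0.721 CPM against a highest mmp-1- library of 0.394 CPM. The log2 change was -3.37 (SE 0.52) for mmp-1+ and -8.64 (SE 0.71) for mmp-1- cells, and the interaction was 5.26 (SE 0.84, edgeR adjusted p 0.00551). SMED30034869 had 6.24, 4.16 and 1.40 CPM in 48 h mmp-1+ libraries, against 30.3, 31.7 and 22.8 CPM in intact mmp-1+ libraries. Values for mmp-1- were 0.253, 0.150 and 0.183 CPM at 48 h, against 64.6, 39.7 and 47.9 CPM in intact worms. The populations overlapped at neither time, with mmp-1+ cells higher at 48 h and lower in intact worms, and its interaction was 5.18 (SE 0.69, edgeR adjusted p 0.00159). The 48 h mmp-1- values rest on 15, 20 and 28 counts for SMED30000113 and on 16, 10 and 13 for SMED30034869. The size of both interactions thus depends on few counts. limma with voom, which weights log values in place of a count model, did not call either gene (adjusted p 0.874 for SMED30000113 and 0.309 for SMED30034869). It called 3 of the 11 co-varying genes.

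The spread between mmp-1+ libraries at 48 h was wide for all 11 genes, as replicate 3 was the lowest of the 3 in each. Leaving that library out raised the median interaction of the 11 genes to 4.78, against 4.28 with all libraries, and all 11 stayed called. Leaving out 48 h mmp-1+ replicate 1 lowered it to 4.02, with 11 of 11 called, and without 48 h mmp-1+ replicate 2 it was 4.10, with 10 of 11 called. The sum of the sort-enriched genes at 48 h was 110408, 161496 and 115276 CPM in the mmp-1+ libraries. The part of the sort in the low values of replicate 3 was not tested.

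**Figure D2:**
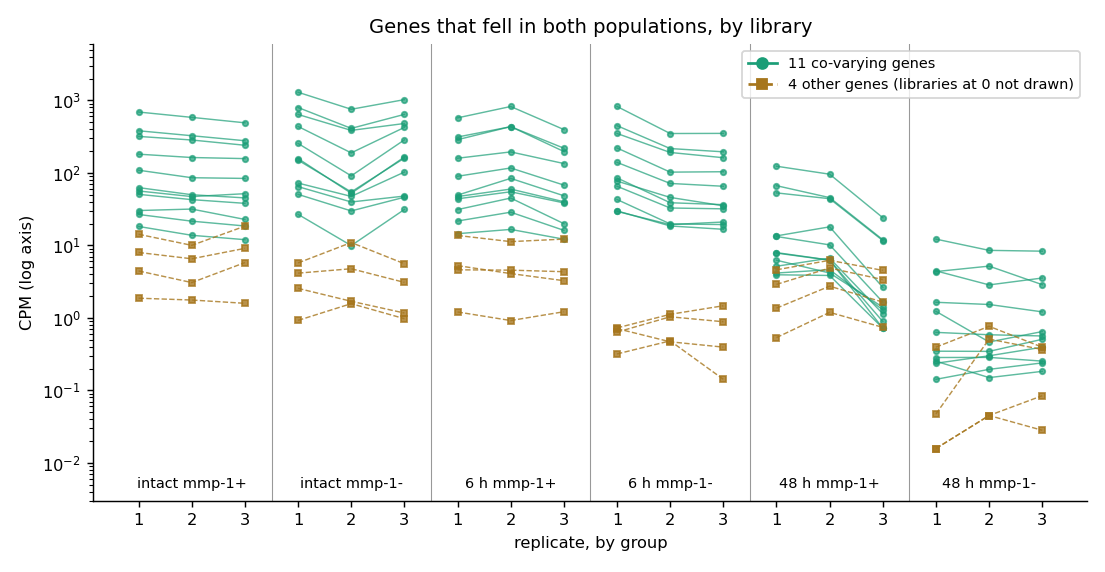
Level of the 15 genes that fell in both populations in each of the 18 sorted libraries, in CPM on a log axis, with the groups ordered by time and the replicate number on the x axis. Each line joins 1 gene within a group, solid for the 11 co-varying genes and dashed for the other 4. The solid lines move together, drop in both populations at 48 h, reach lower levels in mmp-1- cells, and within the 48 h mmp-1+ group are lowest at replicate 3.

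The other 4 genes of this route were rarer and did not share that pattern. Their summed level was 9.40, 15.0 and 10.3 CPM in 48 h mmp-1+ libraries, against 28.5, 21.4 and 34.9 CPM in intact mmp-1+ libraries. The 48 h mmp-1- libraries had 0.474, 1.37 and 0.873 CPM, against 13.3, 19.0 and 10.8 CPM in the intact ones. In intact worms the median sort difference was 0.96 and 2 of the 4 were called higher in mmp-1+ cells, against 4.86% of all genes. The intact libraries entered the interaction that chose these genes, so that count describes the choice. All 4 were called at 6 h (5.82% of all genes) and at 48 h, with median sort differences of 2.94 and 4.00. At 6 h the median log2 change from intact was -0.42 in mmp-1+ cells, with 1 called fall (3.94% of all genes), and -2.36 in mmp-1- cells, with a called fall in all 4 (4.99% of all genes). The intact libraries behind these changes also defined the route, so nothing is read from the counts of falls. Counts behind the lowest values were few, down to 1 in a 48 h mmp-1- library, and limma with voom called none of the 4.

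Genes that rose in both populations, but further in mmp-1+ cells, formed the next route. Their median log2 change at 48 h was 2.11 for mmp-1+ and 0.68 for mmp-1- cells, and the interaction ranged from 0.56 to 3.63. The summed level of the 12 genes was 1230, 1854 and 1513 CPM in 48 h mmp-1+ libraries, against 356, 302 and 337 CPM in intact mmp-1+ libraries. The mmp-1- libraries had 452, 445 and 459 CPM at 48 h, against 266, 280 and 270 CPM in intact worms. All 3 mmp-1+ libraries at 48 h were thus at least 2-fold above every other library of the comparison, while in intact worms the ranges of the populations lay close together. In each of the 12 genes the 48 h libraries lay above the intact libraries in both populations. The share over all genes was 16.5% for mmp-1+ and 14.5% for mmp-1- cells, but here too the route was defined by rises called in these libraries, and the count describes that choice. At 6 h, 6 of 12 were called above intact in mmp-1+ cells and 4 of 12 in mmp-1- cells, against 2.58% and 4.56% of all genes. These 6 h changes are measured from the intact libraries that also defined the route, so nothing is read from these counts.

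SMED30034953 had 174, 312 and 209 CPM in 48 h mmp-1+ libraries, against 30.5, 22.5 and 30.0 CPM in intact mmp-1+ libraries. At 48 h the mmp-1- libraries held 33.8, 34.0 and 27.1 CPM, against 15.6, 18.3 and 16.5 CPM in intact worms. The lowest mmp-1+ library at 48 h was above every other library, and the mmp-1- libraries at 48 h did not overlap those of intact worms. The log2 change was 3.07 (SE 0.17) for mmp-1+ and 0.91 (SE 0.16) for mmp-1- cells, and the interaction was 2.15 (SE 0.23, edgeR adjusted p 0.000151). SMED30034470 had 150, 224 and 204 CPM in 48 h mmp-1+ libraries, against 51.2, 37.8 and 48.0 CPM in intact mmp-1+ libraries. Values for mmp-1- were 39.8, 39.0 and 39.9 CPM at 48 h, against 28.6, 31.0 and 31.1 CPM in intact worms. Again the mmp-1+ libraries at 48 h stood above all others, and the shift in mmp-1- cells was small but without overlap. Its interaction was 1.69 (SE 0.18, edgeR adjusted p 0.000151). Both genes stayed called in all 21 alternatives, with interactions of 1.88 to 2.32 for SMED30034953 and 1.56 to 1.84 for SMED30034470.

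**Figure D3:**
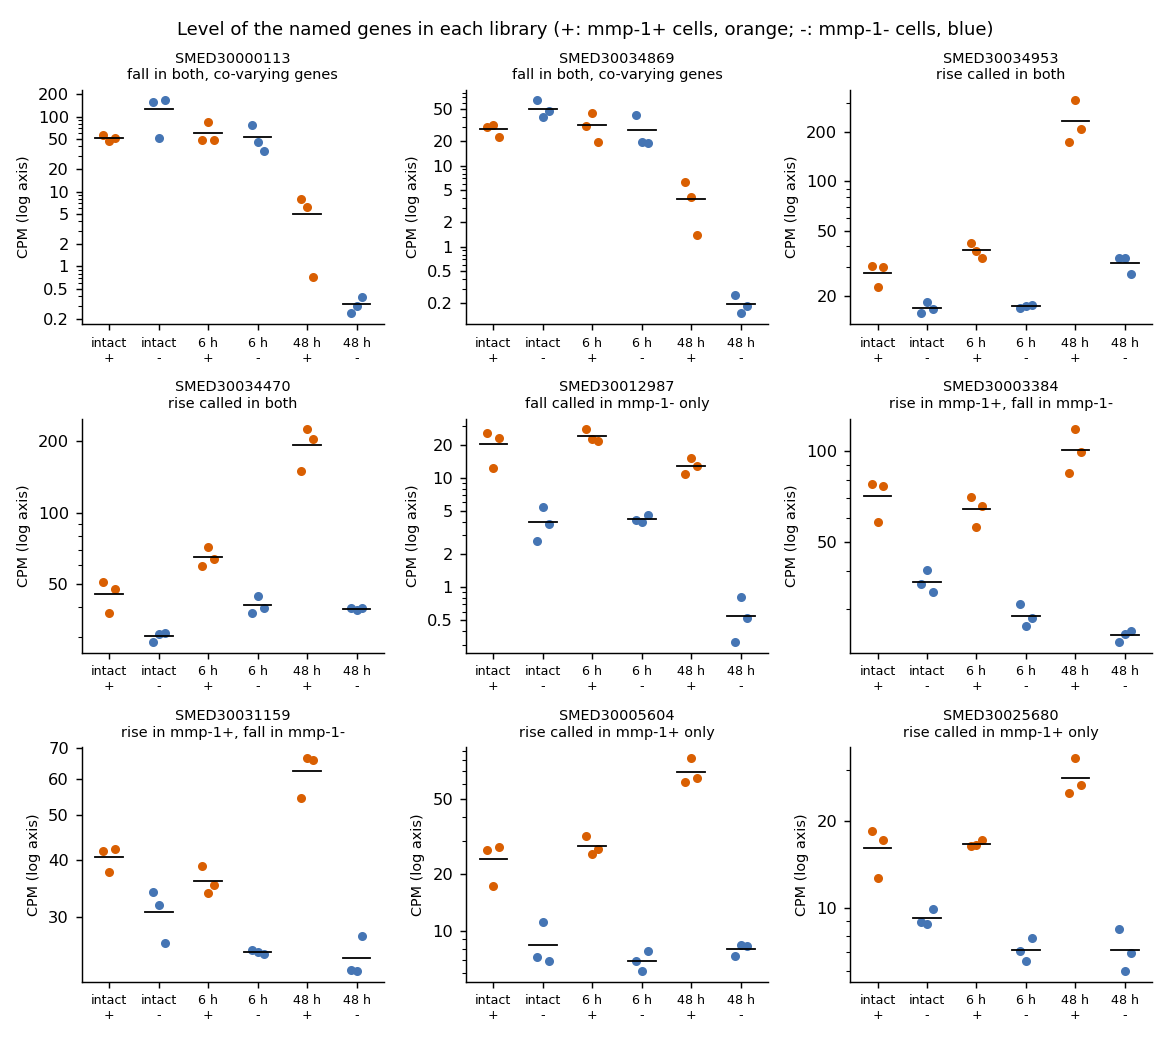
Level in each library of the 9 genes named by rule, in CPM on a log axis, for mmp-1+ cells (orange) and mmp-1- cells (blue) from whole worms and from tails, 6 h and 48 h after amputation. Each point is 1 library and each bar is the mean of 3 libraries. In all 9 genes the 3 mmp-1+ libraries at 48 h lie above the 3 mmp-1- libraries at 48 h.

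The route of a rise in mmp-1+ cells with no called change in mmp-1- cells held 20 genes, with a median interaction of 0.89. Their median log2 change at 48 h was 0.85 for mmp-1+ and -0.10 for mmp-1- cells, with changes in mmp-1- cells between -0.47 and 0.25. A change that is not called is not shown to be absent, since the median SE of a change in mmp-1- cells was 0.18 over all genes. The summed level of the 20 genes was 825, 1030 and 932 CPM in 48 h mmp-1+ libraries, against 521, 463 and 515 CPM in intact mmp-1+ libraries. The 48 h mmp-1- libraries had 429, 426 and 430 CPM, against 411, 438 and 400 CPM in the intact ones. The sum was thus near 1 level in all 6 mmp-1- libraries and higher in the 3 mmp-1+ libraries at 48 h. In intact worms 7 of the 20 were already called higher in mmp-1+ cells (4.86% of all genes), with a median sort difference of 0.22, and the median was 0.28 at 6 h and 1.07 at 48 h. The intact libraries are part of the interaction that chose these genes, so nothing is read from the count of 7.

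SMED30005604 had 61.0, 82.1 and 64.2 CPM in 48 h mmp-1+ libraries, against 26.8, 17.3 and 27.8 CPM in intact mmp-1+ libraries. The mmp-1- libraries had 7.34, 8.42 and 8.34 CPM at 48 h, against 7.28, 11.1 and 6.93 CPM in intact worms. The mmp-1+ groups did not overlap, whereas the 48 h values in mmp-1- cells fell within the intact range. Its log2 change was 1.53 (SE 0.18) for mmp-1+ and -0.07 (SE 0.18) for mmp-1- cells, and the interaction was 1.60 (SE 0.25, edgeR adjusted p 0.00492). SMED30025680 had 25.1, 33.1 and 26.7 CPM in 48 h mmp-1+ libraries, against 18.5, 12.7 and 17.1 CPM in intact mmp-1+ libraries. At 48 h the mmp-1- libraries held 8.41, 6.02 and 6.97 CPM, against 8.93, 8.81 and 9.91 CPM in intact worms. The mmp-1- libraries at 48 h were all below those of intact worms by a small margin, and that fall was not called (log2 change -0.37, SE 0.14, edgeR adjusted p 0.0778). The interaction of SMED30025680 was 1.19 (SE 0.20, edgeR adjusted p 0.00716). In both genes replicate 2 was the lowest of the intact mmp-1+ libraries. Without replicate 2 of both intact groups the interaction was 1.20 for SMED30005604 and 1.11 for SMED30025680, and both stayed called.

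A rise in mmp-1+ cells together with a fall in mmp-1- cells was called for 5 genes, with small changes in each population. The median log2 change was 0.63 for mmp-1+ and -0.59 for mmp-1- cells. Their summed level was 208, 274 and 239 CPM in 48 h mmp-1+ libraries, against 171, 138 and 170 CPM in intact mmp-1+ libraries. Values for mmp-1- were 73.3, 74.0 and 79.9 CPM at 48 h, against 105, 110 and 93.1 CPM in intact worms. The sums did not overlap between 48 h and intact worms in either population, and 4 of the 5 genes were already called higher in mmp-1+ cells of intact worms (4.86% of all genes). The interaction and the route were both taken from these libraries, so these values describe that choice. SMED30003384 had 84.8, 118 and 99.2 CPM in 48 h mmp-1+ libraries, against 77.8, 58.3 and 76.5 CPM in intact mmp-1+ libraries. The 48 h mmp-1- libraries had 23.3, 24.9 and 25.4 CPM, against 36.4, 40.4 and 34.3 CPM in the intact ones. The groups did not overlap in either population, although 1 mmp-1+ library at 48 h came close to the intact range. Its log2 change was 0.51 (SE 0.13, edgeR adjusted p 0.0071) for mmp-1+ and -0.59 (SE 0.13, adjusted p 0.00236) for mmp-1- cells, and the interaction was 1.10 (SE 0.18, edgeR adjusted p 0.00583). SMED30031159 had 54.4, 66.6 and 65.8 CPM in 48 h mmp-1+ libraries, against 41.8, 37.5 and 42.2 CPM in intact mmp-1+ libraries. The mmp-1- libraries had 23.0, 22.9 and 27.2 CPM at 48 h, against 34.1, 31.9 and 26.3 CPM in intact worms, so that its mmp-1- groups overlapped. Its interaction was 0.96 (SE 0.15, edgeR adjusted p 0.00375).

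A fall in mmp-1- cells with no call in mmp-1+ cells was found for 3 genes. Their summed level was 23.8, 33.1 and 29.7 CPM in 48 h mmp-1+ libraries, against 39.8, 23.5 and 38.1 CPM in intact mmp-1+ libraries. At 48 h the mmp-1- libraries held 4.15, 4.20 and 4.20 CPM, against 12.5, 13.8 and 14.7 CPM in intact worms. The mmp-1+ sums overlapped between the times and the mmp-1- sums did not. SMED30012987 had 10.9, 15.2 and 12.9 CPM in 48 h mmp-1+ libraries, against 26.0, 12.4 and 23.0 CPM in intact mmp-1+ libraries. Values for mmp-1- were 0.316, 0.810 and 0.521 CPM at 48 h, against 2.67, 5.40 and 3.77 CPM in intact worms. SMED30012987 is also among the genes used to describe the sort. Like their sum, it was lowest in mmp-1+ and highest in mmp-1- cells in intact replicate 2, and the part of the sort in its values was not tested. Its mmp-1+ groups overlapped through replicate 2 of the intact group, with a log2 change of -0.66 (SE 0.24, edgeR adjusted p 0.0712). The interaction of SMED30012987 was 2.18 (SE 0.41, edgeR adjusted p 0.0245), and it missed the threshold in 9 of 21 alternatives, with adjusted p from 0.00212 to 0.273.

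As a difference between the populations at each time, the routes followed different courses. All 55 were called higher in mmp-1+ cells at 48 h (4.39% of all genes were called higher and 0.398% lower), and in all 55 the 3 mmp-1+ libraries lay above the 3 mmp-1- libraries, against 11.3% of all genes tested. Both counts rest on the 48 h libraries that also entered the interaction, so nothing is read from them. In intact worms 19 of the 55 were called higher in mmp-1+ cells, against 4.86% of all genes, and 0 lower. The intact libraries entered the interaction too, so nothing is read from these intact counts either. At 6 h 25 were called higher, against 5.82% of all genes, and 0 lower (0.907% of all genes). The median sort difference was 0.19 among intact libraries, 0.28 at 6 h and 1.81 after 48 h on the log2 scale. The genes were chosen by a change between intact and 48 h, so a median that is largest at 48 h follows from the choice. In the 4 rarer shared falls the medians were 0.96, 2.94 and 4.00. In the 3 genes that fell in mmp-1- cells alone they were 0.72, 1.83 and 2.54, although SMED30012987 stood at 2.37, 2.51 and 4.55. In the 11 co-varying genes they were -0.91, 0.17 and 3.43. The median difference of each of these sets was more positive at 6 h than in intact worms. For the 12 shared rises it was 0.27 in intact worms and 0.25 at 6 h. The intact libraries entered the interaction that chose all these genes, so no early onset is read from these medians. In the same test at 6 h, edgeR called 0 genes in the interaction, with 440 genes more and 486 less positive at an unadjusted p under 0.05. The median 6 h interaction of the 55 genes was 0.24, but it shares the intact libraries with the 48 h interaction.

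**Figure D4:**
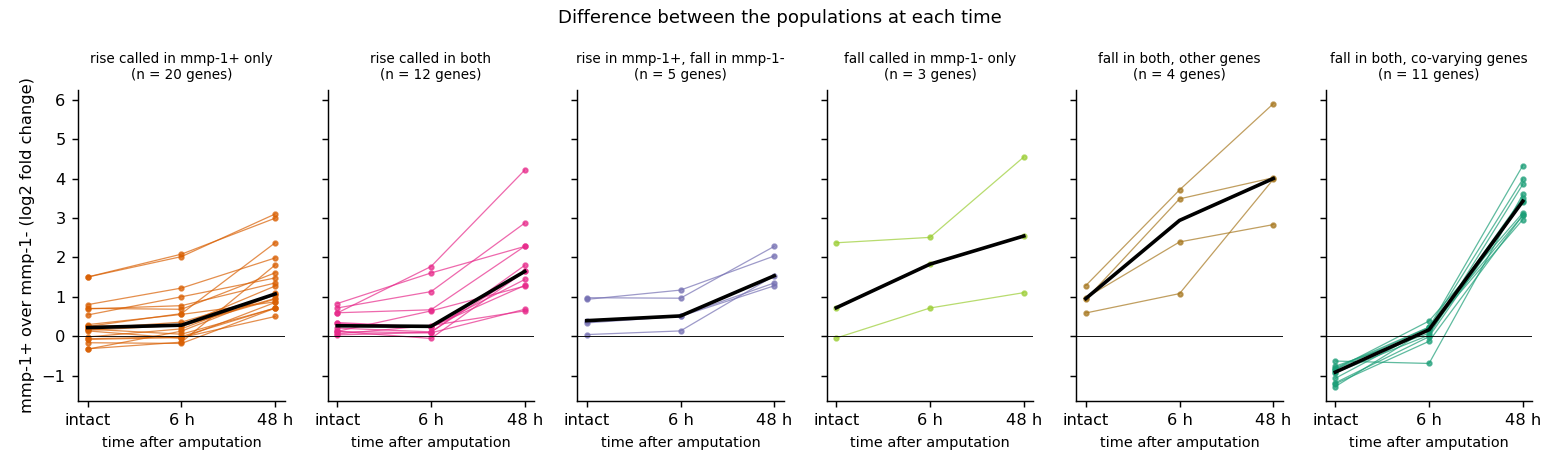
Difference between mmp-1+ and mmp-1- cells (log2 fold change from edgeR) among intact, 6 h and 48 h libraries for the 55 genes, with 1 panel per route, thin lines for genes and a thick black line for the median. The medians of the first 3 panels lie between 0.22 and 0.52 until 6 h and reach 1.07 to 1.65 at 48 h. The 11 co-varying genes start below 0, at a median of -0.91, and end at 3.43.

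The Slide-seqV2 sections of the series, in which beads with known positions capture the RNA of a tissue section, show where transcripts of these genes lay. For each time, 8 to 9 tail fragments had been frozen around 1 intact animal, and 2 adjacent sections were cut from that block. The sections hold both kinds of tissue, have no biological replicate and were not sorted, so their values are descriptions. Beads with at least 50 UMIs (unique molecular identifiers, which count captured molecules) were used, 21254 and 18060 of them in the 48 h sections and 16048 and 22873 in the 6 h sections. Pairs of sections shared 3 to 5 bead barcodes. Intervals are exact 95% Poisson intervals, which cover counting error only.

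The 11 co-varying genes held 327 CPM (320 to 335) and 709 CPM (697 to 721) in the 48 h sections, against 1910 CPM (1884 to 1937) and 2013 CPM (1989 to 2037) in the 6 h sections. All 11 were lower in both 48 h sections than in both 6 h sections, where this held for 14.9% of the 11223 genes with at least 200 UMIs. Adjacent 48 h sections differed from one another beyond counting error, as the intervals show. Their transcripts were also concentrated on few beads. In the 48 h sections the richest 1% of beads held 69.6% and 72.1% of the UMIs of these genes, and in the 6 h sections 54.7% and 52.5%. For the 12 genes that rose in both populations the corresponding shares were 17.1% and 18.6% at 48 h and 19.9% and 20.1% at 6 h. At least 1 UMI of the co-varying genes lay on 7.79% and 8.89% of beads at 48 h and on 22.4% and 21.5% at 6 h. For the 12 rising genes it was 30.4% and 28.7% of beads at 48 h and 21.3% and 21.6% at 6 h, so in the 6 h sections both sets lay on similar shares of beads. The median depth of these beads was 414 and 411.5 UMIs at 48 h and 269.5 and 283 UMIs at 6 h, and its part in these shares was not tested.

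The 12 genes that rose in both populations held 704 CPM (693 to 716) and 699 CPM (687 to 711) in the 48 h sections, against 583 CPM (569 to 598) and 683 CPM (669 to 697) in the 6 h sections. Of the 10 with enough UMIs, 8 were higher in both 48 h sections than in both 6 h sections and 1 was lower, in data where 51.9% of genes were higher. The 20 genes that rose in mmp-1+ cells held 326 and 350 CPM at 48 h, against 275 and 275 CPM at 6 h, and 11 of 15 were higher in both 48 h sections. CPM are shares of the total of each section, so levels cannot be higher for all genes at once. The median log2 ratio of 48 h over 6 h was still 0.29 over all 11223 genes with enough UMIs. It was 0.68 for the 10 genes and 0.49 for the 15 genes, values to be read beside 0.29. Among the genes named, SMED30034953 had 164 and 134 CPM in the 48 h sections, against 49.7 and 55.9 CPM in the 6 h sections. SMED30034869 had 16.1 and 42.7 CPM at 48 h, against 112 and 138 CPM at 6 h.

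Beads were also divided by their content of the sort-enriched genes, leaving out the 1 that is also among the 55. On the 25% of beads with the largest share of these transcripts, the 11 co-varying genes held 845 and 1483 CPM at 48 h and 6216 and 5650 CPM at 6 h. On the remaining beads they held 176 and 438 CPM at 48 h and 873 and 948 CPM at 6 h. The level was thus higher on the beads rich in sort-enriched genes in all 4 sections. The same held for every other set of the 55 genes. Genes that rose in mmp-1+ cells alone had 412 and 452 CPM on the rich beads at 48 h, against 301 and 314 CPM on the remaining beads. Their 6 h values were 320 and 296 CPM, against 264 and 268 CPM. No value over all genes was taken, so a higher level on rich beads is not read as a trait of the co-varying genes. The 12 genes that rose in both populations had 1272 and 1271 CPM on the rich beads at 48 h, against 538 and 499 CPM on the remaining beads. At 6 h they had 928 and 998 CPM on the rich beads, against 500 and 590 CPM on the remaining beads. Rich beads were shallower, with a median of 266 and 313 UMIs at 48 h, against 481 and 450 UMIs on the remaining beads, and the part of depth in these values was not tested.

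**Figure D5:**
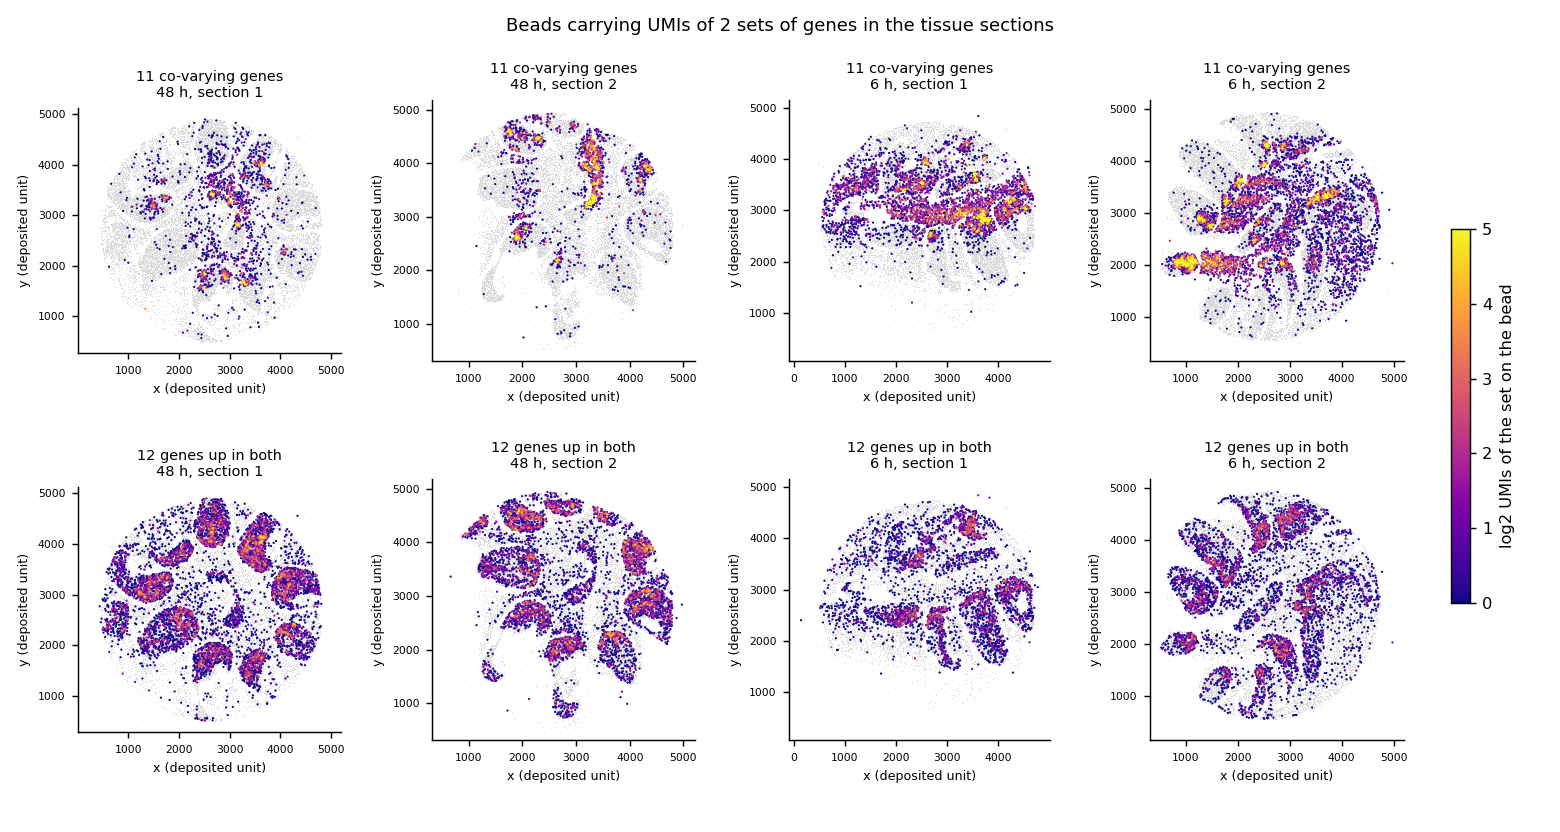
Positions of beads with at least 50 UMIs in the 48 h and 6 h sections, with x and y in the deposited unit of position, which is a detail not given in the sources used here. Grey beads carry none of the set's transcripts and coloured beads show the log2 number of UMIs per bead, with the colour scale ending at 5, for the 11 co-varying genes (top) and the 12 genes that rose in both populations (bottom). In the 48 h sections 7.79% and 8.89% of beads are coloured for the co-varying genes and 30.4% and 28.7% for the rising genes, and in the 6 h sections 22.4% and 21.5% against 21.3% and 21.6%.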

How the data were processed

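The members, the routes and the gene groups were chosen with earlier results of these data known. The authors deposited raw read counts per gene for the sorted cells and raw UMI counts per gene and bead for the sections, with bead positions in a deposited unit of their own that is not a measure of expression. STAR 2.7.3a, RSEM and bcl2fastq 2.20 are named in the submitters' processing notes, and the genome build is a detail not given in the sources used here. cDNA was made with 10 and libraries with 12 PCR cycles, per the labels' protocols, without UMIs or strand, so reads are not independent molecules and antisense genes cannot be told apart. Of all reads in a library, 13.2% to 16.1% were unmapped and 5.67% to 8.73% multimapping. Both stayed out of library sizes, and genes with near-identical copies are uncertain.

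Counts of all 18 sorted libraries (6 groups) were fitted with edgeR 4.0.16 in R 4.3.3 (filterByExpr, TMM, quasi-likelihood test, Benjamini-Hochberg adjustment), as tested on simulated data. CPM are scaled by TMM, and SE is the absolute log2 fold change divided by the square root of F. Named genes are the 2 per route with the largest interaction among those with average log2 CPM of at least 3 and called in all 12 leave-one-out fits, or without the last condition where too few remained. Alternatives were DESeq2 1.42.0, limma 3.58.1 with voom, other scalings and filters, blocks and left-out libraries. Single-cell samples of the series were not used here. The labels call the replicates biological.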

Additional observations from a re-analysis of the deposited data

Results flagged for a closer look

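The 48 h response differed between mmp-1+ and mmp-1- cells by the test of the interaction itself for 55.0 genes, all with the more positive change in mmp-1+ cells. The genes named from these had interactions on the log2 scale of 5.26 (SMED30000113), 5.18 (SMED30034869), 2.15 (SMED30034953), 1.69 (SMED30034470), 2.18 (SMED30012987), 1.10 (SMED30003384), 0.96 (SMED30031159), 1.60 (SMED30005604) and 1.19 (SMED30025680). The difference rests on 3 libraries per group.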

How the results depend on the processing

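All 9 named genes kept a positive interaction in all 21 alternatives. With RLE size factors edgeR called 57 genes as more positive in mmp-1+ cells and 0 as less positive. DESeq2 called 98 and 6, limma with voom 32 and 0, total counts 51 and 2, and edgeR without the filter 52 and 1. Leaving out replicate 2 of both intact groups, added after the data had been seen, gave 44 and 18, with 7 rising in both and 3 moving in opposite directions. Leaving out 1 library gave 35 to 66 more and 0 to 11 less positive genes. The lowest count, 35, was without 48 h mmp-1+ replicate 2 and the highest, 66, without 48 h mmp-1+ replicate 1.

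The routes moved further. A rise called in mmp-1+ cells alone was found for 35 genes with DESeq2 and 12 with the 4 groups fitted alone (9 to 24 with 1 library left out). A fall in both was found for 3 with voom (13 to 18), and a rise in both for 7 with the 4 groups alone (5 to 12). Opposite changes were found for 12 with DESeq2 and 3 with the 4 groups alone (3 to 10), and a fall in mmp-1- cells alone for 17 and 1 (1 to 9). Rises in mmp-1+ cells alone were fewer than shared falls with the 4 groups fitted alone (12 and 15) and with the number as a replicate block (12 and 16). The cause was not tested.

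Replicate numbers are not stated to pair libraries, and the main fit pairs none. Deviations of same-numbered libraries of the 2 populations at 1 time correlated with r between -0.003 (intact replicate 1) and 0.28 (9 pairs). For different numbers r lay between -0.24 and 0.06. At 48 h the same numbers had r of 0.08, 0.05 and 0.10, and all pairs of different numbers were negative. Whether same numbers share a pool of worms was not tested. With the number as a replicate block edgeR called 45 more and 0 less positive genes, 12 of them rising in mmp-1+ cells alone. With the worm pool as a replicate block it called 62 and 2. In that fit the change within a population refers to replicate 1 of each time, while the interaction uses all replicates. Its routes (7 rising in both, 2 opposite and 12 falling in mmp-1- cells alone) are therefore not comparable with the main routes.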
